A study of Mus musculus with 8 samples.

Results

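The respiratory chain genes of mouse pancreatic ductal adenocarcinoma (PDAC) cells were followed through a switch of Smad4 by doxycycline (Dox). They were taken by gene name as the subunits of complexes I to V, together with the Ndufaf assembly factors of complex I that share the Nduf prefix. The rule found 112 of the 53465 genes counted, of which 13 are the protein genes of the mitochondrial genome, 92 are nuclear genes and 7 are pseudogenes. Enough reads were counted to test 7 of the 13 mitochondrial genes, 85 of the 92 nuclear genes and 0 of the 7 pseudogenes.

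RNA-seq was done in 8 libraries from the lines B73 and B87. Each line was grown from the pancreatic tumor of a KC-shSmad4 mouse, in which Ptf1a-Cre acts in the pancreas to switch on, at Rosa26, the Dox-controlled activator rtTA3 with the reporter mKate2. In these mice Dox also induces an shRNA against Smad4, linked to GFP, from the Col1a1 locus. All 4 groups carried these alleles, were grown on collagen, and had 1 library from each line. DoxOn cells stayed on Dox (Smad4 off), and DoxOff cells had been without Dox for 5 days when they were plated (Smad4 on). From 24 h after plating both received, for 24 h, either TGFb1 at 100 pM or SB505124 at 2.5 µM. SB505124 blocks the TGFβ type I receptor kinase. The Dox dose is 1 µg/ml in the growth protocol and in the study's methods, whereas the treatment label gives the same figure in mg/ml. Each line stands for 1 tumor. With the line in the model, p-values rest on how far the 2 lines differed in their changes between groups, moderated over genes. Libraries of cells with a control shRNA were not analysed here, so the presence of Dox and the loss of Smad4 cannot be told apart in any comparison of DoxOff with DoxOn.

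Complexes I to IV of the inner mitochondrial membrane pass electrons to oxygen and, except complex II, pump protons, and complex V (ATP synthase) uses the proton gradient to make ATP. Their subunits come from both genomes. The mitochondrial genome encodes core subunits of complexes I, III, IV and V, which are translated on mitochondrial ribosomes, and all subunits of complex II are nuclear. Doxycycline belongs to the tetracyclines, which bind bacterial ribosomes and can also inhibit the related mitochondrial ribosomes. RNA-seq measures transcripts and not their translation, and in a bulk culture fewer cells with a transcript and less of it per cell cannot be told apart.

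Totals ran from 18389235 to 23440550 counts per library, and 3 counts, the level taken as the floor of detection, corresponded to 0.125 to 0.162 CPM. CPM are counts put on a common library size, here with TMM factors taken from the bulk of the genes. Smad4 rose after Dox withdrawal in every pair: in SB505124 in B73 from 33.7 to 97.4 and in B87 from 34.9 to 114 CPM, and in TGFb1 in B73 from 34.7 to 117 and in B87 from 35.5 to 115 CPM. Summed ductal epithelial markers (7 genes) ran from 1218 to 6209 CPM, higher in every B73 than in every B87 library. With Dox withdrawal this sum went from 4016 to 6209 CPM in SB505124 and from 3944 to 5790 CPM in TGFb1 in B73. In B87 it went from 2109 to 1690 and from 1301 to 1218 CPM, and its part in the results was not tested. The markers did not move alike: in B73 in TGFb1 Krt8 went from 1233 to 2410 and Krt18 from 1439 to 2428 CPM. Epcam was also higher there, whereas Krt7, Krt19, Cdh1 and Sox9 were lower. Stromal fibroblast markers (4 genes) summed to 0.766 to 33.7 CPM, leukocyte markers (4 genes) to 1.33 to 6.34 CPM, endothelial markers (3 genes) to 0.648 to 26.0 CPM and acinar markers (4 genes) to 0.408 to 1.33 CPM. At most 3 counts in every library were found for 2 of the stromal, 2 of the leukocyte and 3 of the acinar markers. The endothelial sum was lower in DoxOff than in DoxOn cells of every pair: in TGFb1 it was 7.24 CPM in DoxOn and 3.32 CPM in DoxOff cells of B73 and 26.0 and 4.64 CPM in those of B87, and its part in the results was not tested. The lower sum in TGFb1 was that of Kdr (log2 -3.35, edgeR adjusted p = 0.00289), while Cdh5 was higher in DoxOff cells, at 2.76 against 0.986 CPM in B73 and at 2.04 against 0.797 CPM in B87 (log2 1.42, edgeR adjusted p = 0.0761).

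The mitochondrial genes have to be described first by what could be counted. In all 8 libraries 6 of the 13 had 0 counts: mt-Co2 and mt-Co3 of complex IV, mt-Atp6 and mt-Atp8 of complex V, and mt-Nd3 and mt-Nd4l of complex I. These are neighbors. They form a single block of 3161 bases of the mitochondrial genome (GRCm38, MT:7013-10173), and the 3 tRNA genes annotated inside the block were at 0 as well, although 20 of all 24 mitochondrial rRNA and tRNA genes had at most 3 counts in every library. The counts above floor began again at the next gene, mt-Nd4, with 16601 to 25924 counts per library. Of these 6 genes, 5 had a near-complete copy on chromosome 1, on the minus strand between 24612407 and 24615565, annotated as separate genes. Of all stretches of 75 bases (the read length) of mt-Co2, 99.5% were also present in Gm28661, and the shares were 99.5% for mt-Atp6 (Gm10925), 99.9% for mt-Co3 (Gm28437), 97.8% for mt-Nd3 (Gm28438) and 98.7% for mt-Nd4l (Gm10222). These 5 copies had at most 1 count in any library. For mt-Atp8 no annotated nuclear transcript held a stretch (0.0%). Gm10925 and Gm28661 lie 233 bases apart, against 230 bases between mt-Co2 and mt-Atp6. The sequence between the 2 copies, where part of a copy of mt-Atp8 could lie, was not compared.

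Sequence was compared to show how little separates the uncounted genes from their copies. The lines below give the first 75 bases of 2 of the 6 uncounted genes with their copies, 5′ to 3′ (GENCODE M21 transcripts, GRCm38), and the same stretch of mt-Nd2, a gene that was counted. Capitals mark the only base that differs.
mt-Co2 (MT:7013-7087, plus strand): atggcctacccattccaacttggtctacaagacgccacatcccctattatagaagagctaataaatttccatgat
Gm28661 (chr1:24615491-24615565, minus strand): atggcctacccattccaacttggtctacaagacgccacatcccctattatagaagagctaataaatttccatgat
mt-Nd3 (MT:9459-9533, plus strand): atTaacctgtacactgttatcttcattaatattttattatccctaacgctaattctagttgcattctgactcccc
Gm28438 (chr1:24613045-24613119, minus strand): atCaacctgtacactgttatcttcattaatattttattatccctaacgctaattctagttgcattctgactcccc
mt-Nd2 (MT:3914-3988, plus strand): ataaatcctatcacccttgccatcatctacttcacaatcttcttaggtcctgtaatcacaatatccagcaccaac
Over the 681 bases of Gm28661, mt-Co2 differed at 0 positions. Over the 345 bases of Gm28438, mt-Nd3 differed at 1 position, T3C, counted from the start codon. A read of the shown stretch of mt-Co2 has more than 1 matching place in the genome, whereas the shown stretch of mt-Nd2 was found in no nuclear transcript. How reads with several matching places were counted is not stated in the sources used here, and its part in the 0 counts was not tested.

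The 7 counted genes shared less with nuclear transcripts. The shares were 0.0% for mt-Nd1, mt-Nd6 and mt-Cytb, 1.66% for mt-Nd5, 5.71% for mt-Nd2, 39.8% for mt-Co1 (Gm29216) and 61.5% for mt-Nd4 (Gm28439). Per kilobase of gene and averaged over the libraries, the levels were 3808 CPM for mt-Cytb, 3265 CPM for mt-Co1, 2777 CPM for mt-Nd1, 1166 CPM for mt-Nd2, 819 CPM for mt-Nd6, 768 CPM for mt-Nd5 and 747 CPM for mt-Nd4. The levels were divided by the full gene length, shared stretches included, so the places of mt-Co1 and mt-Nd4 in this order are less certain. The gene mt-Nd6 lies on the opposite strand to the other 12 genes, with the strand setting of the counting not stated.

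**Figure D1:**
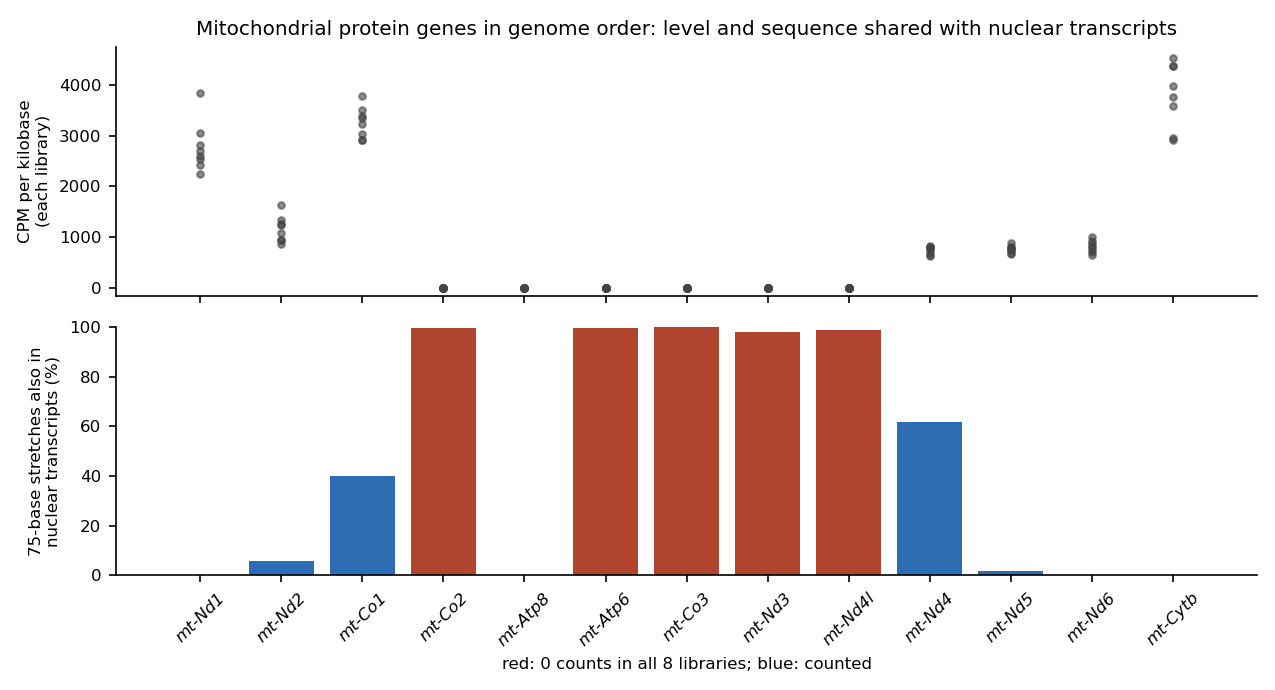
The upper panel plots CPM per kilobase of gene in each of the 8 libraries (points) for the 13 mitochondrial protein genes in genome order, and the lower panel the percentage of each gene's 75-base stretches that also occur in annotated nuclear transcripts. The 6 genes at 0 lie side by side, and 5 of them share 97.8% to 99.9% of their stretches, while mt-Atp8 shares 0.0%.

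DoxOff was compared with DoxOn within SB505124, where receptor signaling is blocked, to measure what changed with the switch itself. None of the mitochondrial genes passed an adjusted p under 0.05 (edgeR quasi-likelihood test with the line in the model, Benjamini-Hochberg over 14301 genes), against 1.59% of all genes tested. All 7 had a lower fitted level in DoxOff cells, at a median of -0.30 (log2) against 0.00 over all genes tested, and 4 had an unadjusted p under 0.05. Over all 14301 genes tested, 1809 had an unadjusted p under 0.05. DESeq2 with the line called 2 lower, mt-Nd2 and mt-Cytb, and edgeR with no filter on low counts, over more genes, called 3, adding mt-Nd1. How many of all genes these alternative fits called was not counted, here or in the comparisons below. Of the nuclear genes 0 of 85 passed, 0 had an unadjusted p under 0.05, and DESeq2 called 0, with a median log2 fold change of 0.01.

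The gene with the largest difference was mt-Nd2, a core membrane subunit of complex I. In SB505124 its level went in B73 from 1699 CPM in DoxOn to 907 CPM in DoxOff, and in B87 from 1290 to 987 CPM. In TGFb1 it went in B73 from 1387 to 982 and in B87 from 1302 to 1127 CPM. All 4 DoxOn libraries lay above all 4 DoxOff libraries. How often such a separation occurred among all genes tested was not counted. The log2 fold change was -0.65 ± 0.15 (SE, n = 2 lines, edgeR adjusted p = 0.106) in SB505124 and -0.35 ± 0.15 (adjusted p = 0.208) in TGFb1.

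For mt-Cytb, the cytochrome b of complex III, the level in SB505124 went in B73 from 5000 to 3326 and in B87 from 5173 to 4112 CPM. In TGFb1 it went in B73 from 4556 to 3377 and in B87 from 5012 to 4293 CPM. Here too the DoxOn and DoxOff libraries did not overlap, and how often this occurred among all genes tested was not counted. The log2 fold change was -0.46 ± 0.11 (edgeR adjusted p = 0.116) in SB505124 and -0.33 ± 0.11 (adjusted p = 0.126) in TGFb1.

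mt-Nd1, another membrane subunit of complex I, behaved less evenly. It went in B73 from 3667 to 2440 and in B87 from 2913 to 2492 CPM in SB505124, and in B73 from 2587 to 2318 and in B87 from 2142 to 2704 CPM in TGFb1. The lines moved the same way in SB505124 and opposite ways in TGFb1. The log2 fold changes were -0.41 ± 0.15 (edgeR adjusted p = 0.307) and 0.09 ± 0.15 (adjusted p = 0.745).

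mt-Nd6, read from the other strand, was at 462 and 339 CPM in B73 (DoxOn, DoxOff) and 479 and 428 CPM in B87 in SB505124. In TGFb1 it was at 364 and 389 CPM in B73 and at 423 and 516 CPM in B87. DoxOff was the lower library in both lines in SB505124 and the higher in both in TGFb1. The difference between these 2 effects was 0.50 ± 0.15 on the log2 scale (unadjusted p = 0.0113 and adjusted p = 0.292, edgeR).

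mt-Co1, the catalytic core of complex IV, was among the most abundant, at 4497 to 5843 CPM in DoxOn and 4692 to 5247 CPM in DoxOff libraries. Its log2 fold change was -0.11 (95% interval -0.33 to 0.11) in SB505124 and 0.10 (-0.12 to 0.33) in TGFb1. mt-Nd4 ran from 988 to 1128 CPM in DoxOn and from 858 to 1078 CPM in DoxOff libraries, with log2 fold changes of -0.18 and -0.15. Its level was lower in DoxOff cells of both lines in each treatment. mt-Nd5 ran from 1258 to 1481 CPM in DoxOn and from 1229 to 1611 CPM in DoxOff libraries, with -0.12 and 0.11. For these 3 genes the groups overlapped.

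**Figure D2:**
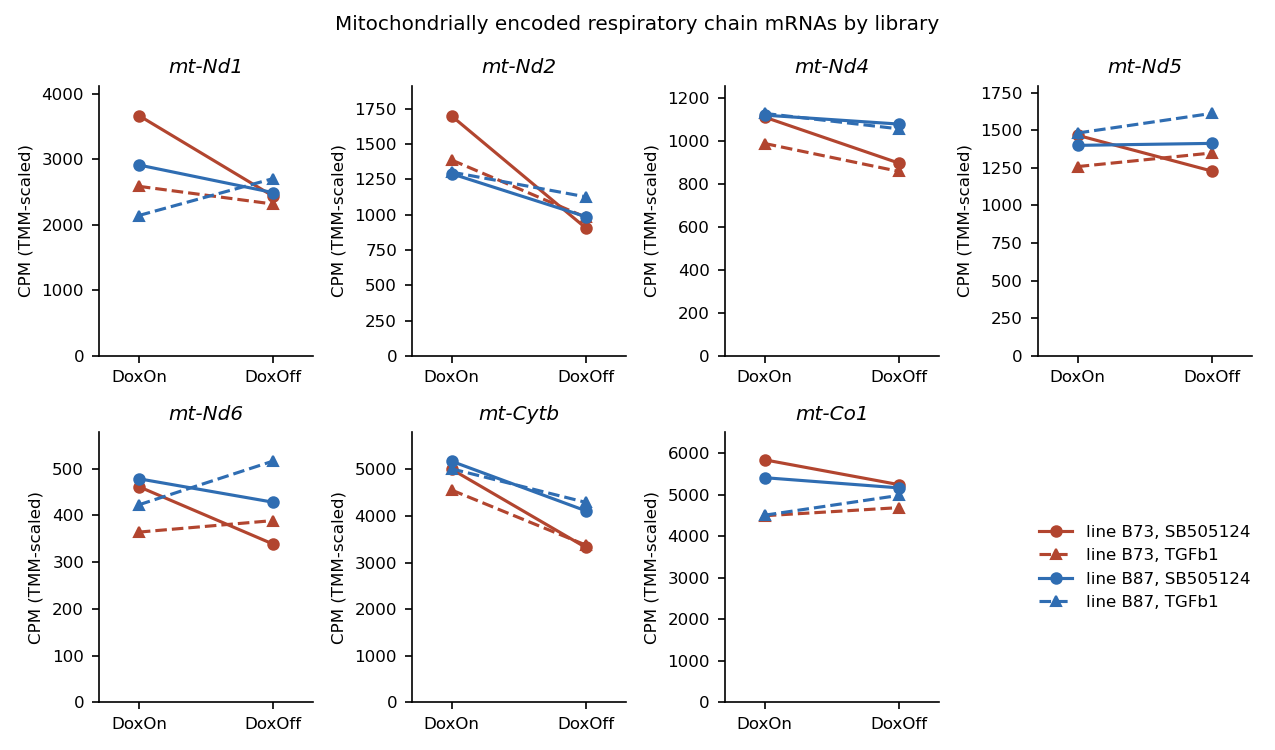
Each panel plots the TMM-scaled CPM of a mitochondrially encoded mRNA in the 8 libraries, with a line joining DoxOn to DoxOff within a cell line (color) and treatment (circles and solid lines for SB505124, triangles and dashed lines for TGFb1). All 4 lines fall for mt-Nd2, from 1290-1699 to 907-1127 CPM, for mt-Cytb, from 4556-5173 to 3326-4293 CPM, and for mt-Nd4, whose ranges overlap. The lines of mt-Nd1, mt-Nd5, mt-Nd6 and mt-Co1 slope down in some pairs and up in others.

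In TGFb1, 0 of 7 mitochondrial genes passed (2 with an unadjusted p under 0.05, mt-Nd2 and mt-Cytb), against 6.8% of all genes tested, and DESeq2 with the line called 1, mt-Cytb. The fitted level was higher in 4 and lower in 3, with a median log2 fold change of 0.09. That median turned to -0.12 without the B87 DoxOff library in TGFb1 and was -0.16 in B73 alone. With libraries scaled by their totals instead of TMM, the median of all genes was -0.13 in TGFb1 (-0.01 with TMM), and mt-Nd1, mt-Co1 and mt-Nd5 turned to slightly negative values. Of the nuclear genes 0 of 85 passed (4 with an unadjusted p under 0.05), DESeq2 called 0, and the median was 0.01. Over all 14301 genes tested, 3396 had an unadjusted p under 0.05 in TGFb1.

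When the 2 treatments were averaged, mt-Nd2 and mt-Cytb passed and were lower in DoxOff cells, and 0 of 85 nuclear genes passed in edgeR (4 with an unadjusted p under 0.05, and 1 in DESeq2 with the line), against 8.03% of all genes tested. mt-Nd2 fell by 0.50 on the log2 scale (SE 0.104, edgeR adjusted p = 0.0317) and mt-Cytb fell by 0.39 (SE 0.0756, edgeR adjusted p = 0.0257), each lower in 4 of 4 pairs. Without the line in the model the edgeR adjusted p was 0.133 for mt-Nd2 and 0.217 for mt-Cytb, and both kept passing in DESeq2 with or without the line. Both calls were lost in edgeR on leaving out any one of 6 libraries, namely any B73 library, the B87 DoxOff library in SB505124 or the B87 DoxOn library in TGFb1, with adjusted p between 0.0517 and 0.129. The other 5 mitochondrial genes did not pass, and none of their fitted log2 fold changes was below -0.17. Among them mt-Nd4 was also lower in 4 of 4 pairs. Of all 7 mitochondrial genes, 3 had an unadjusted p under 0.05 (edgeR), against 3534 of all 14301 genes tested.

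The effect of Dox withdrawal was also tested for a difference between treatments and between lines. Between treatments 0 of 7 mitochondrial and 0 of 85 nuclear genes passed (2 and 0 with an unadjusted p under 0.05, and 0 and 0 in DESeq2), against 0.196% of all genes tested. Over all 14301 genes, 1493 had an unadjusted p under 0.05 there. Between lines again 0 and 0 passed in edgeR (2 and 3 with an unadjusted p under 0.05), against 0.406% of all genes, although each of the 7 mitochondrial genes had a more negative value in B73 than in B87. The largest of these differences were 0.43 ± 0.14 for mt-Nd1 (unadjusted p = 0.0170, adjusted p = 0.342, edgeR) and 0.40 ± 0.15 for mt-Nd2 (unadjusted p = 0.0281, adjusted p = 0.422, edgeR). In the test between lines 1408 of all 14301 genes had an unadjusted p under 0.05 (edgeR), and DESeq2 was not run for it.

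The makeup of the counted mitochondrial mRNAs is described by Dox state and was not tested. mt-Nd2 took 7.25% to 8.87% of the mitochondrial counts in the 4 DoxOn libraries and 6.29% to 7.03% in the 4 DoxOff libraries. mt-Co1 took 28.2% to 30.4% in DoxOn and 30.6% to 36.5% in DoxOff libraries. Neither range overlapped with its counterpart, but for mt-Co1 the edges were close, at 30.43% in DoxOn and 30.60% in DoxOff. The shares of mt-Cytb overlapped, at 26.0% to 31.3% in DoxOn and 23.1% to 26.3% in DoxOff libraries. Those of mt-Nd1, mt-Nd4, mt-Nd5 and mt-Nd6 overlapped as well. Shares are tied to each other, so a lower share of some genes raises those of the rest. These shares do not depend on the scaling between libraries.

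Summed over the 7 genes, mitochondrial mRNA took 1.29% to 2.03% of the counts of a library. In SB505124 the sum went in B73 from 19248 to 14385 and in B87 from 17786 to 15679 CPM. In TGFb1 it went in B73 from 15638 to 13964 and in B87 from 15997 to 16294 CPM. The mitochondrial sum was lower in DoxOff cells in 3 of 4 pairs after TMM scaling and in 4 of 4 as a share of the library total. The 85 tested nuclear genes and their 7 rarely counted relatives summed to 9481 to 10584 CPM, higher in DoxOff in 3 of 4 pairs, but in 1 of 4 as a share of the library total. The log2 ratio of the mitochondrial to the nuclear sum changed by -0.53 in B73 and -0.12 in B87 in SB505124, and by -0.23 in B73 and -0.00439 in B87 in TGFb1. That last change was 0.00926 once the 3 most abundant nuclear genes, Atp5b, Atp5a1 and Cox4i1, were left out.

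**Figure D3:**
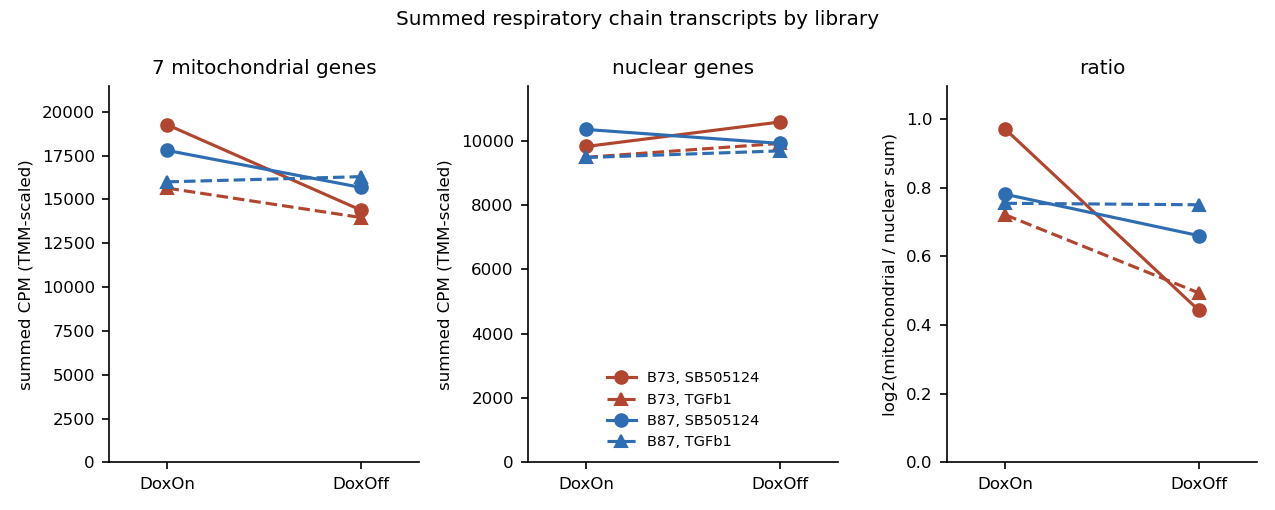
Summed TMM-scaled CPM of the 7 counted mitochondrial genes (left) and of the nuclear genes (middle), and the log2 ratio of the sums (right), in each of the 8 libraries, with DoxOn joined to DoxOff within each line and treatment. The mitochondrial sum runs from 13964 to 19248 CPM and the nuclear sum from 9481 to 10584 CPM, and the largest step is the ratio in B73 in SB505124, which changed by -0.53.

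The ribosomal RNAs of the mitochondrial genome are other transcripts of the same DNA. In SB505124 the log2 fold change was -0.16 ± 0.11 for mt-Rnr1 and -0.30 ± 0.14 for mt-Rnr2 (edgeR adjusted p = 0.618 and 0.451). In TGFb1 it was 0.21 ± 0.11 and -0.09 ± 0.14 (adjusted p = 0.310 and 0.741). Both were measured in libraries selected for poly(A) RNA, with 1568 to 3272 counts for mt-Rnr1 and 2688 to 5686 counts for mt-Rnr2.

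The medians of the nuclear genes lay near 0 in each complex. In SB505124 the fitted log2 fold changes ran from -0.38 to 0.23, and 76 of 85 genes had a 95% interval within ±0.5. Complexes were assigned from the gene name alone. The medians were 0.02 for the 37 genes put in complex I, -0.11 for its 8 Ndufaf assembly factors and 0.04 for the 4 of complex II. They were -0.05 for the 8 of complex III, 0.02 for the 12 of complex IV and 0.02 for the 16 of complex V. In TGFb1 the medians in the same order were 0.01, -0.02, 0.00, 0.03, 0.03 and -0.01, and 75 of 85 genes had an interval within ±0.5. Changes larger than 0.5 on the log2 scale lay outside the intervals of most nuclear genes.

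**Figure D4:**
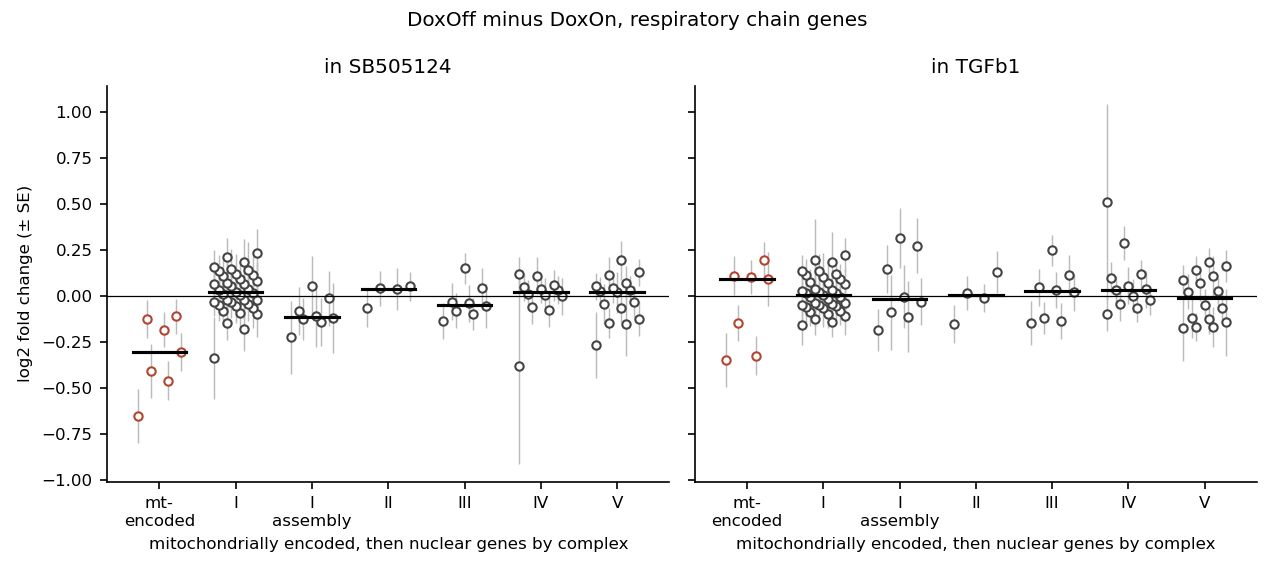
Log2 fold change of DoxOff over DoxOn (circles, with SE as grey bars) in SB505124 (left) and TGFb1 (right) for the 7 mitochondrial genes (red) and the 85 tested nuclear genes by complex, with black bars at the medians. The medians of the mitochondrial genes are -0.30 and 0.09, those of the nuclear complexes lie between -0.11 and 0.04, and no gene passed, so all circles are open.

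The nuclear genes at the ends of the range included some with few reads. The lowest 5 in SB505124 were Cox7a1 (-0.38 ± 0.53), Ndufb4 (-0.34 ± 0.22), Atp5l (-0.27 ± 0.18), Ndufaf3 (-0.23 ± 0.20) and Ndufc2 (-0.18 ± 0.12). Cox7a1, the heart and muscle isoform of a complex IV subunit, had only 6 to 14 counts per library, and Ndufb4 was at 4.63 to 7.12 CPM. The highest 5 were Ndufv3 (0.23 ± 0.13), Ndufb6 (0.21 ± 0.10), Atp5g1 (0.19 ± 0.11), Ndufb10 (0.18 ± 0.13) and Ndufa9 (0.16 ± 0.09). Of these 10, the edgeR adjusted p was 0.472 or above.

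In TGFb1 the highest were Cox7a1 (0.51 ± 0.53), Ndufaf4 (0.31 ± 0.16), Cox5a (0.29 ± 0.09), Ndufaf2 (0.27 ± 0.15) and Uqcrc1 (0.25 ± 0.09), and the lowest were Ndufaf7 (-0.18 ± 0.11), Atp5s (-0.18 ± 0.18), Atp5g2 (-0.17 ± 0.11), Atp5e (-0.17 ± 0.08) and Ndufa5 (-0.16 ± 0.11). Cox7a1 thus stood at opposite ends in the 2 treatments, at 0.246 to 0.715 CPM. The nearest to passing were Cox5a, a nuclear subunit of complex IV, and Uqcrc1, a core subunit of complex III. Cox5a was at 83.5 and 95.9 CPM in B73 (DoxOn, DoxOff) and at 79.2 and 102 CPM in B87 (edgeR adjusted p = 0.121). Uqcrc1 was at 246 and 291 CPM in B73 and at 226 and 270.0 CPM in B87 (edgeR adjusted p = 0.140). Both were higher in DoxOff in each line. Averaged over treatments, Uqcrc1 stood at a fitted log2 change of 0.20 ± 0.06 (adjusted p = 0.0981 in edgeR), and it passed in DESeq2 with the line (adjusted p = 0.0460).

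The tissue-restricted isoforms were near or under the floor, apart from Cox7a1. Cox7b2 and Cox8c, both known from testis, had 0 counts in all libraries, which allows up to 3 counts per library, or 0.125 to 0.162 CPM. Cox8b, Cox6a2 and Ndufa4l2 had at most 1 count in any library, Cox6b2 at most 2, and Cox4i2, the oxygen-regulated counterpart of Cox4i1, 1 to 6. Their ubiquitous counterparts were abundant. Per kilobase the highest nuclear levels were 437 CPM for Atp5b and 319 CPM for Atp5a1, the catalytic-head subunits of ATP synthase. In complex IV they were 277 CPM for Cox8a, 227 CPM for Cox6b1, 206 CPM for Cox6a1 and 190.3 CPM for Cox4i1. The lengths used for Atp5b (4237 bases) and Atp5a1 (3135 bases) equal all annotated exons merged, which can exceed a single mRNA. This order is therefore less certain, and these nuclear levels cannot be set against the mitochondrial ones per kilobase. The 7 pseudogenes had 0 to 3 counts per library.

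Genes that make or support the chain were listed apart from the members. Of mitochondrial ribosomal proteins (78 tested), genes of mitochondrial DNA maintenance and expression (25), mitochondrial translation factors (15), assembly factors of complexes II to V (31) and of complex I outside the Nduf names (8), and mitochondrial chaperones and proteases (14), 0 passed in either direction on Dox withdrawal, in SB505124, in TGFb1 or averaged, and 0 to 6 genes of a list had an unadjusted p under 0.05 (edgeR). For ribosomal proteins 3 had an unadjusted p under 0.05 in SB505124 and 6 in TGFb1, with medians of -0.05 and -0.01. Over all 14301 genes tested, 1809 and 3396 had such a p. Of 10 regulators of mitochondrial biogenesis, 18 targets of the stress factor ATF4 and 20 genes of electron carriers and quinone synthesis, 0 passed in SB505124 and 1 gene of each list passed in TGFb1, where 6.8% of all genes tested passed, so these counts are not above that share for the lists of 18 and 20. Esrra, a nuclear receptor that acts on promoters of energy metabolism genes, rose in B73 from 31.5 to 44.2 and in B87 from 26.0 to 35.9 CPM (log2 0.48 ± 0.09, edgeR adjusted p = 0.0313). Ddit3, which encodes the stress-induced factor CHOP, rose in B73 from 12.6 to 20.5 and in B87 from 10.4 to 14.8 CPM (0.61 ± 0.13, edgeR adjusted p = 0.0397). Coq10b, a coenzyme Q binding protein, rose in B73 from 56.8 to 106 and in B87 from 60.6 to 88.5 CPM (0.72 ± 0.16, edgeR adjusted p = 0.0440). None of the 3 passed without the line in the model (adjusted p = 0.373, 0.351 and 0.210, edgeR).

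TGFb1 was compared with SB505124 within each Dox state to see how the same genes answered the pathway. These comparisons share their libraries with those above. Every group received TGFb1 or the inhibitor, so an effect of TGFb1 and one of SB505124 cannot be told apart. In DoxOn cells 0 of 7 mitochondrial and 1 of 85 nuclear genes passed, against 13.2% of all genes tested. All 7 mitochondrial genes had a lower fitted level in TGFb1 (3 with an unadjusted p under 0.05), 4 of them lower in both lines. DESeq2 with the line called mt-Nd1 (-0.47) and mt-Co1 (-0.31). Over all 14301 genes tested, 4106 had an unadjusted p under 0.05 (edgeR). The nuclear gene that fell was Atp5c1, which encodes the γ subunit of ATP synthase, in B73 from 303 to 258 and in B87 from 305 to 232 CPM (log2 -0.31 ± 0.08, edgeR adjusted p = 0.0493). It lost the call on leaving out any of the 8 libraries and kept it in DESeq2 with the line (adjusted p = 0.0141). Of the 85, 66 had a lower fitted level in TGFb1, among them 16 of 16 in complex V, with a median of -0.15 for complex V and -0.02 for all genes tested. Both lines were lower in 45 of the 85 and in 13 of the 16. Over all 14301 genes tested, 7477 had a lower fitted level and 5347 were lower in both lines. Under the other 3 scalings tried, 64 to 74 of the 85 and again 16 of 16 in complex V were lower, and library totals shifted the median of all genes to -0.07.

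In DoxOff cells 0 of 7 mitochondrial genes passed (0 with an unadjusted p under 0.05 against 6266 of all 14301 genes, and 0 in DESeq2). Of the nuclear genes 8 fell and 1 rose in TGFb1, 9 of 85 against 33.2% of all genes tested. Complex I held 4 of those that fell. Ndufa5, an accessory subunit, fell in B73 from 35.8 to 23.8 and in B87 from 38.2 to 28.4 CPM (log2 -0.51 ± 0.11, edgeR adjusted p = 0.0116). Ndufb10 fell by 0.41, Ndufb11 by 0.28 and Ndufs8 by 0.26, to which Sdhd of complex II (fell by 0.36) and Atp5g2 (0.37 lower), Atp5c1 (0.29 lower) and Atp5e (0.25 lower) of complex V were added, with edgeR adjusted p between 0.0323 and 0.0473.

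Uqcrc1 was the nuclear gene that rose, in B73 from 245 to 291 and in B87 from 208 to 270.0 CPM (0.31 ± 0.09, edgeR adjusted p = 0.0312). Without the line 0 of the 9 genes passed in edgeR, and DESeq2 with the line called 6 genes (Ndufa5, Ndufb10, Ndufb11, Sdhd, Atp5c1 and Uqcrc1). With library totals, under which the median of all genes was -0.15 (-0.02 with TMM), 25 nuclear genes passed. Leaving out single libraries left between 0 and 8 calls, and 0 without the B73 DoxOff library in SB505124 or without either DoxOff library in TGFb1. Atp5g2 shares 35.8% of its 75-base stretches with other genes, so its count is less certain.

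**Figure D5:**
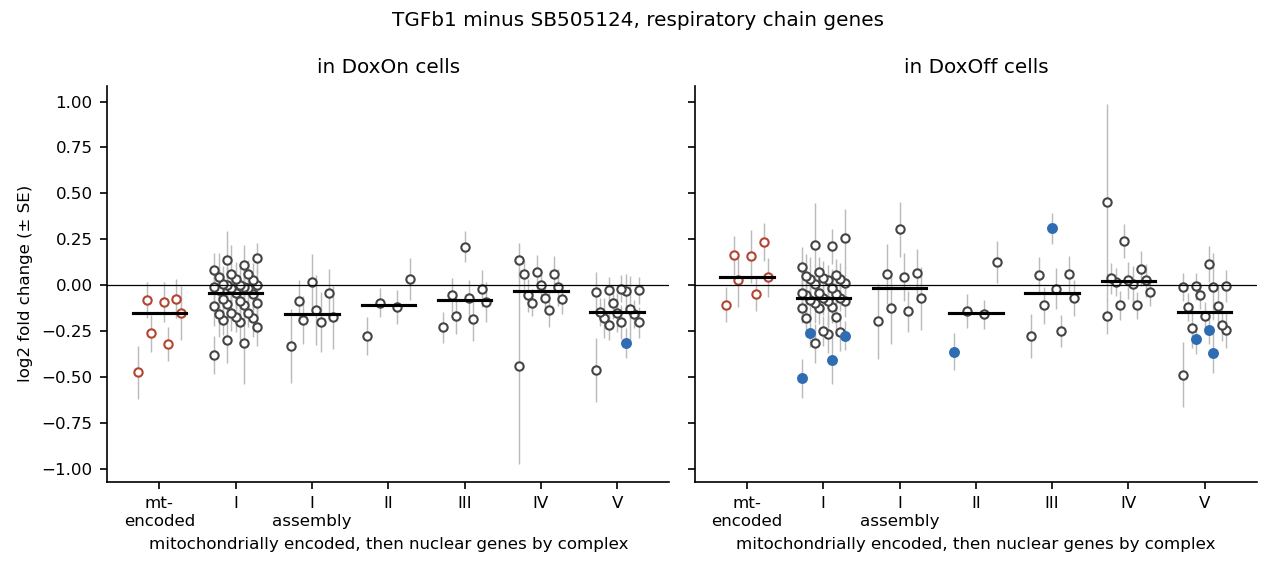
Log2 fold change of TGFb1 over SB505124 (circles, with SE as grey bars) in DoxOn (left) and DoxOff cells (right) for the mitochondrial (red) and nuclear genes by complex, with black bars at the medians and filled blue circles for genes with an adjusted p under 0.05. The filled circles are Atp5c1 at -0.31 on the left, and on the right 8 genes between -0.51 and -0.25 and Uqcrc1 at 0.31.

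Promoters of Uqcrc1, which rose, and of Atp5g2, which fell, are shown because both hold the same letters of the factor NRF1, a known activator of respiratory chain genes. The sequences are from RefSeq (GRCm38.p6) and cover 250 bases before to 50 after the start, 5′ to 3′ along the gene. Capitals mark GCGCATGCG and its reverse complement CGCATGCGC, which overlap here.
Uqcrc1 (chr9:108936398-108936697, plus strand): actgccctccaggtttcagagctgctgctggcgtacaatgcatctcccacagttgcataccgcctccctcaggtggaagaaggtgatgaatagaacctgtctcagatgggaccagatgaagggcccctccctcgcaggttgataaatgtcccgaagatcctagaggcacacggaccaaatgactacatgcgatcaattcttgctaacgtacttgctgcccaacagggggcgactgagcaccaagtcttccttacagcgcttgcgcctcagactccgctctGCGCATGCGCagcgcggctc
Atp5g2 (chr15:102670998-102671297, minus strand): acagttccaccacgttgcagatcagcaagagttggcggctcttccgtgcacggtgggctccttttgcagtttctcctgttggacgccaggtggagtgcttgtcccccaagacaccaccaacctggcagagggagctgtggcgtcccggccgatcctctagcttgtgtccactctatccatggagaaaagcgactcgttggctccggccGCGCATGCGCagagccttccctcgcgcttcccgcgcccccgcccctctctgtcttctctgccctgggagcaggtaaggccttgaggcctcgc
Of the 92 nuclear genes 74 had a promoter in the table, with 79 promoters in all. The 9 letters, searched on both strands, occurred in 10 of these 79 (12.7%) and in 1.75% of all 32851 promoters. The letters CCGGAAGT of the ETS family, searched the same way, occurred in 5 of 79 (6.33%) and in 3.89% of all promoters. The 10 genes with the NRF1 letters (Ndufa8, Ndufa11, Ndufaf4, Ndufaf5, Uqcrc1, Uqcr11, Cox6a1, Atp5g2, Atp5k and Atp5l) had log2 fold changes of DoxOff over DoxOn from -0.27 to 0.15 in SB505124 and from -0.17 to 0.31 in TGFb1, with 6 positive and 4 negative in each. A match is a description of letters and was not tested as a site.

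The lines themselves differed in 6 of 85 nuclear genes and 0 of 7 mitochondrial genes (3 of these with an unadjusted p under 0.05), against 18.6% of all genes tested. Over all 14301 genes, 4541 had an unadjusted p under 0.05 (edgeR). DESeq2 called 2 mitochondrial genes, mt-Nd6 (0.25) and mt-Cytb (0.21), higher in B87. Atp5d, the δ subunit of ATP synthase, was higher in B87 in every condition, at 236 to 268 CPM against 175 to 191 CPM in B73 (log2 0.47 ± 0.05, edgeR adjusted p = 0.00134). Ndufa4, Ndufb2 and Ndufa9 were also higher in B87, by 0.27, 0.38 and 0.24, and Atp5g2 and Ndufs8 lower, by 0.28 and 0.22 on the log2 scale. With any single library left out, 1 to 3 nuclear genes passed.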

How the data were processed

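RNA-seq was measured in 8 libraries (4 groups, 2 lines, labels read from the sample titles). The authors made stranded poly(A) libraries, sequenced single-end reads of 75 bases, trimmed them with Trimmomatic 0.36, aligned them to GRCm38 (mm10) with STAR 2.5.3a and counted reads per gene with featureCounts 1.6.3, with FastQC 0.11.5 for quality. The deposited values are raw counts per Ensembl gene. Settings for strand and for reads with several matches are not given in the sources used here.

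Counts were tested with edgeR 4.0.16 (R 4.3.3, limma 3.58.1) in a quasi-likelihood model of group and line over all 8 libraries, after filterByExpr (14301 of 53465 genes) and TMM, with Benjamini-Hochberg adjustment over all genes tested. DESeq2 1.42.0 was an alternative. SE and 95% intervals were derived from the F statistic. Numbers pair the samples, since each number is a cell line: the deviations of same-line libraries correlated with r of 0.642 to 0.774 over 6 pairs of groups, and the line was kept in the model. A gene passed at an adjusted p under 0.05. The study's rule also asks for a change over 2-fold. Sequences were compared with GENCODE M21 transcripts and RefSeq promoters (GRCm38.p6). The fits were tested on simulated data. The intervals include the spread between libraries, whereas floors cover counting error only, since PCR copies are not marked.

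The members and the gene lists were chosen with earlier results of these data known. Named were all mitochondrial genes, Smad4, the nuclear genes passing a comparison of Dox states, the 5 highest and 5 lowest nuclear genes there, the restricted isoforms, and for TGFb1 against SB505124 the 3 smallest p-values each way. The further passing genes and the line comparison were named after their values were seen. The test between lines of the Dox effect was added after seeing the data. One allele of the mouse model is not reported here.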

Additional observations from a re-analysis of the deposited data

How the results depend on the processing

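On Dox withdrawal, 0 nuclear genes passed in SB505124 and in TGFb1 under all alternatives run, and averaged over treatments 1 passed in DESeq2 with the line. For mitochondrial genes in SB505124, 0 in the report became 2 (DESeq2 with the line), 1 (DESeq2 without it) and 3 (no filter on low counts), and in TGFb1 0 became 1 in DESeq2 with the line and 1 without the filter. Averaged, the 2 became 0 with the 2-fold rule, 0 in edgeR without the line (no replicate block), and 0 to 2 with 1 library left out. For the alternative fits the share of all genes called was not counted, so their member counts have no background beside them.

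For TGFb1 against SB505124 in DoxOn cells, the mitochondrial 0 became 2 in DESeq2 with the line and without the filter, 1 in DESeq2 without the line, with library totals and with only the 4 libraries, and 0 to 1 with 1 library left out. The nuclear 1 became 2 with library totals or upper-quartile factors and 0 with the 2-fold rule, DESeq2 size factors, no filter, no line (no replicate block) in edgeR, or any library left out. In DoxOff cells the nuclear 9 became 25 with library totals, 5 without the filter, 3 with only the 4 libraries, 2 in DESeq2 and 0 in edgeR without the line, 0 with the 2-fold rule, and 0 to 8 with 1 library left out. Between lines, the mitochondrial 0 became 2 in DESeq2 with the line and without the filter and 0 to 1 with 1 library left out, and the nuclear 6 became 0 with the 2-fold rule and 1 to 3 with 1 library left out.

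With library totals the nuclear median on Dox withdrawal was -0.11 in TGFb1 and -0.0752 averaged, and the mean change of the nuclear sum in TGFb1 was -0.0724. In TGFb1 the mitochondrial median ran from -0.12 to 0.17 with 1 library left out and from -0.16 to 0.12 in single lines. Directions turned only in values that did not pass. With library totals in TGFb1 these were mt-Nd1 (-0.0259), mt-Co1 (-0.0161) and mt-Nd5 (-0.00862). Averaged, mt-Co1 was 0.00106 in DESeq2 with the line and with its size factors and 0.000866 in DESeq2 without the line, where mt-Nd5 was 0.00211. With 1 library left out, ranges crossed 0 in SB505124 for mt-Nd5 (-0.26 to 0.0284), Cox7a1 (-1.22 to 0.28) and Ndufb10 (-0.0120 to 0.40), in TGFb1 for mt-Nd1 (-0.12 to 0.29) and Cox7a1 (-0.0861 to 1.06), and averaged for mt-Co1 (-0.0366 to 0.0276), mt-Nd5 (-0.0789 to 0.0674) and mt-Nd6 (-0.12 to 0.00897). Precision was limited by the 2 lines: 95% intervals lay within ±0.5 on the log2 scale for 76 of 85 nuclear genes in SB505124 and 75 in TGFb1.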
